A study of Mus musculus with 9 samples.

Results

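The 10 genes described here encode the enzymes that make phosphatidylcholine and phosphatidylethanolamine, together with 1 enzyme that remodels their fatty acid chains, out of 19329 gene symbols measured in mouse liver. They were taken as a named list, *Chka*, *Chkb*, *Etnk1*, *Etnk2*, *Pcyt1a*, *Pcyt2*, *Chpt1*, *Cept1*, *Pemt* and *Lpcat3*, and all 10 were found in the tables and passed the filter on low counts, which kept 12091 genes. Poly-A RNA-seq was performed on 9 livers, each from its own mouse of the inbred strain C57BL/6J. Of these mice, 5 stayed on chow while 4 were switched at 8 weeks of age to a high-sucrose diet (HSD), and after 3 weeks, at 11 weeks of age, all livers were collected. No transgene, deletion or other agent is labelled for any mouse, and the sources used here give neither sex nor time of day.

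Phosphatidylcholine and phosphatidylethanolamine are the main phospholipids of cell membranes, and in liver they also coat lipid droplets and very low density lipoproteins. Both are made by the Kennedy pathway, in which a kinase phosphorylates choline or ethanolamine, a cytidylyl transferase activates the phosphorylated base with CTP, and a transferase of the endoplasmic reticulum or Golgi joins it to diacylglycerol. Liver has an additional route to phosphatidylcholine, in which *Pemt* methylates phosphatidylethanolamine with S-adenosylmethionine as the methyl donor, and this links phospholipid synthesis to the methionine cycle and to choline breakdown.

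The sequences just upstream of the start sites of the members with the largest differences between the diets are shown first, for comparison of the 3 genes that rose (*Chka*, *Etnk1* and *Cept1*) with *Etnk2*, which did not pass the test. RefSeq promoters (build GRCm38.p6) were matched for 9 of the 10 members, all but *Pcyt2*, and each line below gives the 250 bases before a start, 5′ to 3′ on the strand of the gene. They lie at chr19:3851523-3851772 (plus strand) for *Chka*, chr6:143166980-143167229 (plus) for *Etnk1*, chr3:106547803-106548052 (minus) for the first of 3 *Cept1* starts and chr1:133363322-133363571 (plus) for *Etnk2*. Capitals mark a CCAAT box or the GC box GGGCGG, each on either strand.
Chka: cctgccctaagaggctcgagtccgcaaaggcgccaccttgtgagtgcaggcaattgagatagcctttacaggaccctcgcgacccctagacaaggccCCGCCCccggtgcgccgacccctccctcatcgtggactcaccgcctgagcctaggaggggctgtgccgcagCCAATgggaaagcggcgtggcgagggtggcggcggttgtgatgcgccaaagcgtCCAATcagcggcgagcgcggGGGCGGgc
Etnk1: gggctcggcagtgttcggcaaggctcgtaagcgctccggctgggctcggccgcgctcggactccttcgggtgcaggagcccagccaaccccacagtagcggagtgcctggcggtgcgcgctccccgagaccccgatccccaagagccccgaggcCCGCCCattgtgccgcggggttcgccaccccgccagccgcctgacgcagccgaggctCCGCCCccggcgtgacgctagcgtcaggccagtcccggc
Cept1: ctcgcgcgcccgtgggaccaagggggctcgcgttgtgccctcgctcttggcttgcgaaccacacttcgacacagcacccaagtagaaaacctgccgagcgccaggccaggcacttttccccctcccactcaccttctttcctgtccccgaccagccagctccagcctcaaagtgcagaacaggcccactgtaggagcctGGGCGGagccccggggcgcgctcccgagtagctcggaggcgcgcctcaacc
Etnk2: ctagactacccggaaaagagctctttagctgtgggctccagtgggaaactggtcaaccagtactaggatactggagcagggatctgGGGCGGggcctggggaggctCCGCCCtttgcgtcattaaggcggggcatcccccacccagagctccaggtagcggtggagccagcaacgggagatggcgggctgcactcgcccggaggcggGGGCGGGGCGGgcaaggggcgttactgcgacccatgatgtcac

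In these windows, *Chka* had CCAAT at positions -82 and -28, where -1 is the base just before the start, and GC boxes at -153 and -8. *Etnk1* had GC boxes at -96 and -39 and *Cept1* had 1 GC box at -51. *Etnk2*, with a fold change of the opposite sign, had GC boxes at -164, -144, -43 and -38, the last pair overlapping. The GC box is common: it was present in 32.7% of 32851 RefSeq promoter windows of the same length, and CCAAT in 33.8%. The E-box CACGTG (6.02% of windows), the sterol element TCACNCCAC (1.05%), TATAAA (12.4%), the D-box TTATGNAA (3.07%), the cAMP element TGACGTCA (1.55%) and the DR4 element of the liver X receptors (a repeat of AGGTCA with 4 bases between, 0.0152%), all searched on both strands, had no match in the 4 windows shown. Among the members, the sterol element matched only in *Pcyt1a*, at -116 from its first start. Of the members not shown, *Lpcat3* had 3 CCAAT and 5 GC boxes, *Chpt1* had 1 and 5, and *Chkb* had 2 and 1. *Chkb* also had TATAAA at -109. At their first starts *Pcyt1a* had 2 GC boxes and *Pemt* had 1 CCAAT box. None of these members passed in edgeR. These matches describe letters and were not tested for binding.

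Libraries held 12769668 to 25913869 estimated counts, and the members' own counts ranged from 188 for *Chka* in chow 5 to 10068 for *Pcyt2* in chow 4. Hepatocyte markers were abundant in every liver, with 4 of 5 in the table and a summed level of 59328 to 122396 CPM (counts scaled to library size after TMM normalization) on chow and 90244 to 122769 CPM on HSD. In bulk tissue, fewer cells of a type and less RNA per cell cannot be told apart. A single liver, chow 1, stood apart in acute phase genes, with *Saa2* at 10112 CPM against at most 39.5 CPM in the other livers and *Hp* at 19791 CPM against at most 3750 CPM. The same liver had the lowest summed hepatocyte markers, at 59328 CPM, and among the chow livers the highest Kupffer cell sum (328 against at most 242 CPM) and the highest cholangiocyte sum (73.5 against at most 47.9 CPM). Clock genes also differed between livers, and *Arntl*, a core clock activator, was at 4.40, 1.63, 9.24, 1.35 and 1.56 CPM in chow 1 to 5 and 9.15, 4.22, 4.23 and 4.20 CPM in HSD 1 to 4. Library labels fell into 2 number series, the first with 4 chow and 2 HSD livers and the second with 1 chow and 2 HSD livers, and the sources used here do not say what the series stand for.

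To see how HSD altered the expression of the pathway, all 12091 genes were tested with edgeR and the members were read out from that fit. Of the 10 members, 3 rose on HSD (*Chka*, *Etnk1* and *Cept1*) and 0 fell, at an adjusted p under 0.05. Over all genes, 3.44% rose and 3.23% fell (6.67% in either direction). By DESeq2 the same 3 members rose and 1, *Etnk2*, fell, whereas limma voom gave 3 and 0. DESeq2 also gave more calls over all genes, 632 higher and 663 lower, against 416 and 391 by edgeR. At an unadjusted p under 0.05 there were 4 members, the 3 that rose and *Etnk2*, against 23.7% of all genes. The median log2 fold change of the members was 0.02 and that of all genes -0.00, with median sizes of 0.15 and 0.19. Every HSD liver lay above every chow liver for 2 members, *Chka* and *Cept1*, and below for 0, against 5.84% and 5.51% of all genes.

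**Figure D1:**
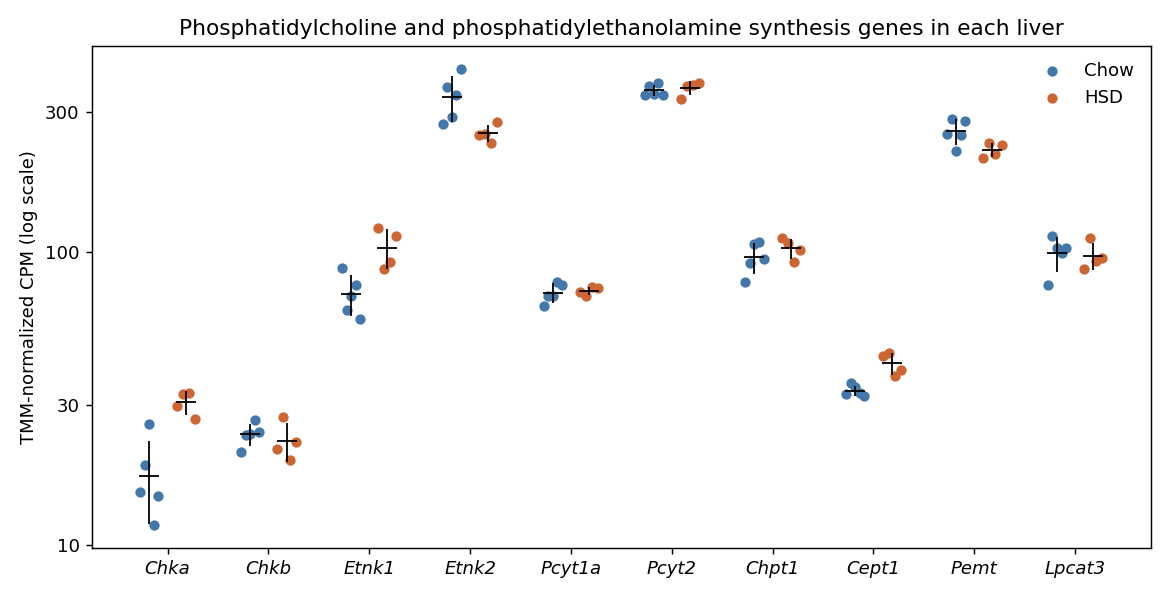
TMM-normalized CPM (log axis) of the 10 members in each liver, with chow in blue and HSD in orange, and bars giving the mean ± SD of 5 chow and 4 HSD livers. *Chka* and *Cept1* are the members whose HSD livers all sit above the chow livers, and *Etnk2* has a lower mean on HSD with chow 1 among the HSD values.

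At the first step, *Chka*, the alpha choline kinase (GRCm38 chr19:3851773-3894369, plus strand), showed the largest difference of the 10 members. Its CPM values were 15.1, 18.8, 25.9, 11.7 and 14.7 in chow 1 to 5 and 29.9, 32.8, 33.2 and 26.8 in HSD 1 to 4. The diets did not overlap, although chow 3 came close to the lowest HSD liver. The mean rose from 17.2 ± 5.45 (SD, n = 5) to 30.7 ± 2.95 CPM (n = 4), a log2 fold change of 0.83 (SE 0.19, 95% interval 0.42 to 1.24), or 1.78-fold, with an edgeR adjusted p of 0.0236. Among the members *Chka* also varied most within chow, with a coefficient of variation of 31.6% against 4.10% to 17.8% for the other 9. The relative transcript length implied by its counts and TPM (kallisto's level per transcript length) was not the same in every liver, spanning 0.70 on the log2 scale from -0.41 in HSD 3 to 0.28 in chow 5. On log2(TPM + 1) the limma log2 fold change of *Chka* was 1.16, on a scale where the median of all genes was 0.14.

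The beta choline kinase, *Chkb* (chr15:89426360-89429908, minus strand), did not pass the test. It measured 20.8, 23.7, 24.0, 26.7 and 24.3 CPM in chow 1 to 5 and 21.3, 27.4, 19.5 and 22.4 CPM in HSD 1 to 4, and the diets overlapped throughout. Its log2 fold change was -0.08 (SE 0.11, 95% interval -0.32 to 0.16, edgeR adjusted p = 0.724). *Chkb* counts may be less certain than the others, because 54.3% of its 31-base sequences also occur in other genes. Most of them (45.8%) occur in Gm44502, an annotated gene on the same strand that covers 50.7% of its exon bases. Gm44502 is not among the gene symbols measured, so whether it took reads from *Chkb* cannot be told.

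The ethanolamine kinases had fold changes of opposite sign, of which that of *Etnk1* passed. *Etnk1* (chr6:143167221-143232307, plus strand) measured 88.2, 63.5, 71.0, 77.4 and 59.3 CPM in chow 1 to 5 and 120, 87.5, 92.4 and 114 CPM in HSD 1 to 4. A single pair crossed, HSD 2 lying just under chow 1, and HSD 1 and HSD 4 were the highest livers. Its mean rose from 71.9 ± 11.5 (SD, n = 5) to 104 ± 16.0 CPM (n = 4), with a log2 fold change of 0.53 (SE 0.13, 95% interval 0.24 to 0.82, edgeR adjusted p = 0.0369). *Etnk2* (chr1:133363572-133380336, plus strand), the form abundant in liver, measured 273, 366, 289, 343 and 422 CPM in chow 1 to 5 and 251, 252, 236 and 277 CPM in HSD 1 to 4. Here too 1 pair crossed, chow 1 lying just under HSD 4. Mean CPM was 339 ± 60.4 (SD, n = 5) on chow and 254 ± 16.8 (n = 4) on HSD, and the log2 fold change of -0.41 (SE 0.13, 95% interval -0.70 to -0.13) did not pass, with an edgeR adjusted p of 0.0779. Of 23 alternative settings, *Etnk2* passed in 2. DESeq2 on all livers gave an adjusted p of 0.0217. Without chow 1, the liver with high acute phase genes, the *Etnk2* log2 fold change was -0.49 and the edgeR adjusted p 0.0219. In the other fits with a liver left out, the *Etnk2* adjusted p was 0.0671 to 0.180. Limma on TPM gave *Etnk2* a log2 fold change of -0.23, with an adjusted p of 0.405 to 0.503.

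Because each kinase step is shared by a pair of genes, the share of the pair's TPM held by one gene was also computed in each liver, as a description with no test. *Chka* held 30.4% ± 7.23 of choline kinase TPM on chow (range 22.8% to 41.7%) and 50.0% ± 4.88 on HSD (45.7% to 56.3%), without overlap. *Etnk1* held 6.58% ± 1.96 of ethanolamine kinase TPM on chow (4.38% to 9.43%) and 11.5% ± 1.45 on HSD (9.85% to 13.3%), again without overlap. As log2 ratios of TPM these are differences of 1.22 for *Chka* to *Chkb* and -0.92 for *Etnk2* to *Etnk1*. With CPM in place of TPM they were 0.96 and -0.93. The sequence that *Chkb* shares with other genes also bears on the *Chka* share. The summed TPM of the choline kinases was 34.3 ± 6.21 on chow (25.8 to 42.2) and 48.0 ± 7.63 on HSD (39.6 to 57.6), and these sums overlapped. For the ethanolamine kinases the sum was 210 ± 43.6 on chow and 185 ± 11.6 on HSD, and *Etnk2* was the main ethanolamine kinase transcript in every liver.

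**Figure D2:**
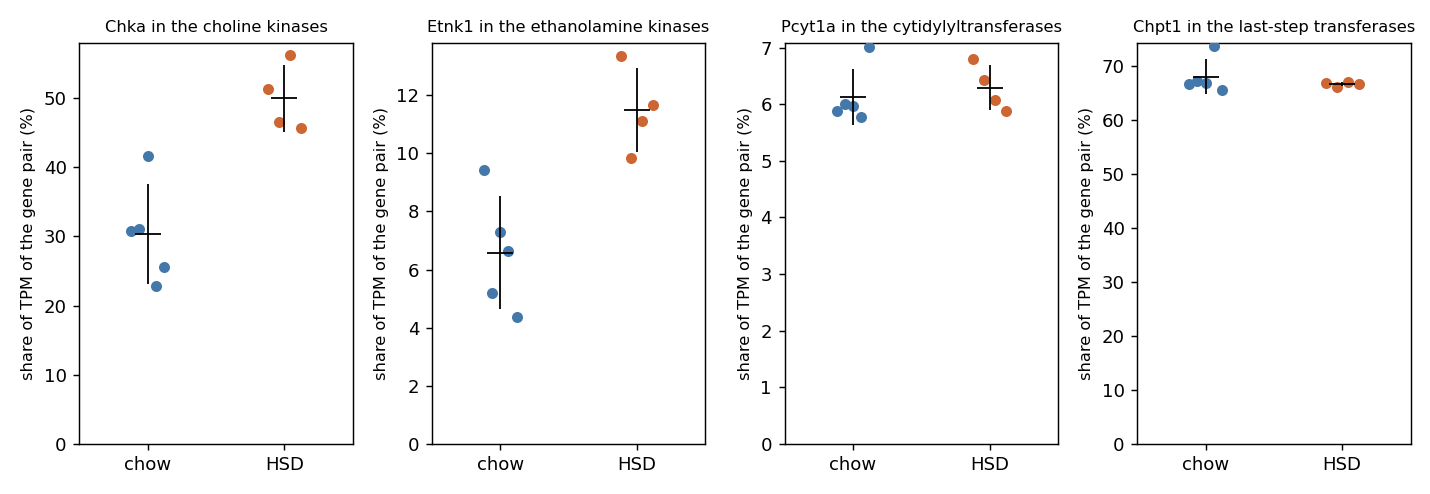
Share (%) of the summed TPM of a gene pair held by the gene named above each panel, with 1 point for each liver (chow blue, HSD orange) and bars giving the mean ± SD of 5 chow and 4 HSD livers. The *Chka* and *Etnk1* shares do not overlap between diets, whereas the *Pcyt1a* and *Chpt1* shares do.

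The cytidylyl transferases of the second step did not pass the test. *Pcyt1a* (chr16:32430921-32475070, plus strand), the enzyme that usually limits the choline branch, measured 65.4, 70.8, 70.9, 79.1 and 77.4 CPM in chow 1 to 5 and 73.2, 71.0, 75.8 and 75.3 CPM in HSD 1 to 4. Its log2 fold change was 0.02 (SE 0.08, 95% interval -0.15 to 0.20, edgeR adjusted p = 0.904). *Pcyt2* (chr11:120610087-120617936, minus strand), which activates phosphoethanolamine, measured 345, 368, 346, 377 and 344 CPM in chow 1 to 5 and 334, 369, 371 and 377 CPM in HSD 1 to 4. The HSD values lay inside the chow range for *Pcyt1a* and spanned it for *Pcyt2*, whose log2 fold change was 0.03 (SE 0.08, 95% interval -0.16 to 0.21, edgeR adjusted p = 0.882). *Pcyt1a* held 6.13% ± 0.499 of the pair's TPM on chow and 6.30% ± 0.404 on HSD, overlapping.

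At the last step, *Cept1* (chr3:106502260-106547802, minus strand), the transferase of the endoplasmic reticulum that uses both activated bases, rose by a small amount in all HSD livers. It measured 32.9, 35.6, 34.5, 33.0 and 32.3 CPM in chow 1 to 5 and 44.1, 45.3, 37.7 and 39.7 CPM in HSD 1 to 4. The chow livers lay within a narrow band and every HSD liver was above it. Its mean rose from 33.7 ± 1.38 (SD, n = 5) to 41.7 ± 3.60 CPM (n = 4), with a log2 fold change of 0.31 (SE 0.08, 95% interval 0.14 to 0.48, edgeR adjusted p = 0.0390). Of the 31-base sequences of *Cept1*, 23.0% also occur in *Dennd2d*, a gene on the opposite strand. *Dennd2d* itself was at 5.61 to 7.72 CPM on chow and 6.19 to 10.1 CPM on HSD and did not pass (log2 fold change 0.21, edgeR adjusted p = 0.504). *Chpt1* (chr10:88452745-88504073, minus strand), the Golgi cholinephosphotransferase, measured 79.3, 91.9, 106, 108 and 94.4 CPM in chow 1 to 5 and 111, 107, 92.6 and 101 CPM in HSD 1 to 4. These groups overlapped, with a log2 fold change of 0.10 (SE 0.10, 95% interval -0.12 to 0.33, edgeR adjusted p = 0.596).

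*Pemt* (chr11:59970614-60046489, minus strand), the methyltransferase that turns phosphatidylethanolamine into phosphatidylcholine, had values of 253, 285, 221, 250 and 281 CPM in chow 1 to 5 and 210, 236, 216 and 232 CPM in HSD 1 to 4. The HSD livers lay in the lower part of the range, with HSD 2 and HSD 4 above chow 3. Mean CPM was 258 ± 25.9 (SD, n = 5) on chow and 224 ± 12.4 (n = 4) on HSD, and the log2 fold change of -0.21 (SE 0.10, 95% interval -0.42 to 0.00) did not pass (edgeR adjusted p = 0.220, unadjusted 0.0539). *Lpcat3* (chr6:124663027-124704418, plus strand), which places polyunsaturated chains into lysophosphatidylcholine and is a known target of the liver X receptors, measured 77.3, 114, 103, 99.0 and 103 CPM in chow 1 to 5 and 87.7, 112, 93.2 and 95.7 CPM in HSD 1 to 4. These values overlapped fully, with a log2 fold change of -0.03 (SE 0.12, 95% interval -0.28 to 0.22, edgeR adjusted p = 0.902). As a description of transcript levels with no test, the log2 ratio of *Pemt* to *Pcyt1a* TPM was 4.18 to 4.57 on chow and 4.02 to 4.16 on HSD. The difference was -0.24, and neither gene passed on its own. On the TPM scale *Pemt* was at 392 ± 56.2 on chow and 383 ± 12.5 on HSD, and *Pcyt1a* at 19.1 ± 2.68 and 22.1 ± 0.376. Flow through the routes to phosphatidylcholine was not measured.

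On the TPM scale, which allows levels of different genes to be compared, the members spanned a wide range in chow livers. *Pemt* was highest at 392 ± 56.2 TPM (SD, n = 5), followed by *Pcyt2* at 294 ± 42.0 and *Etnk2* at 197 ± 44.2 TPM. Each of these 3 was above the next gene in all 5 chow and all 4 HSD livers. *Lpcat3* (60.9 TPM) and *Chpt1* (60.6 TPM) could not be ordered, since *Lpcat3* was the higher in 2 of 5 chow livers and 0 of 4 HSD livers. *Cept1* (28.2 TPM) was above *Chkb* (23.7 TPM) in 4 of 5 chow livers and in all 4 HSD livers. At the lower end, *Chkb* lay above *Pcyt1a* (19.1 TPM), and *Pcyt1a* above *Etnk1* (13.2 TPM), in all 5 chow livers. On HSD each of these pairs kept its order in only 2 of 4 livers. *Chka* was lowest on chow at 10.6 ± 4.22 TPM and reached 24.2 ± 5.96 TPM on HSD, where *Etnk1* (21.4 TPM) was above it in 2 of 4 livers against 4 of 5 on chow. The order of the 3 genes with the highest levels was thus shared by the diets. The 4 genes with the lowest levels on chow had means of 21.4 to 24.2 TPM on HSD.

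The 3 members that rose differed in how far the result rested on single livers. *Chka* passed in 5 of the 9 fits with a liver left out, and its adjusted p was 0.0538 without chow 5, 0.0663 without HSD 1, 0.0593 without HSD 2 and 0.0644 without HSD 3, with log2 fold changes of 0.71 to 1.03 throughout. *Etnk1* passed only without chow 1 (0.0107) and without HSD 2 (0.0365). Its adjusted p was 0.0711 without chow 2, 0.0678 without chow 3, 0.0517 without chow 4, 0.0753 without chow 5, 0.121 without HSD 1, 0.0551 without HSD 3 and 0.115 without HSD 4. *Cept1* passed only without chow 2 (0.0486) and without HSD 3 (0.0405). Its adjusted p was 0.0559 without chow 1, 0.0628 without chow 3, 0.0714 without chow 4, 0.0854 without chow 5, 0.121 without HSD 1, 0.102 without HSD 2 and 0.0770 without HSD 4. The direction held in each of these fits, with log2 fold changes of 0.45 to 0.60 for *Etnk1* and 0.27 to 0.35 for *Cept1*.

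**Figure D3:**
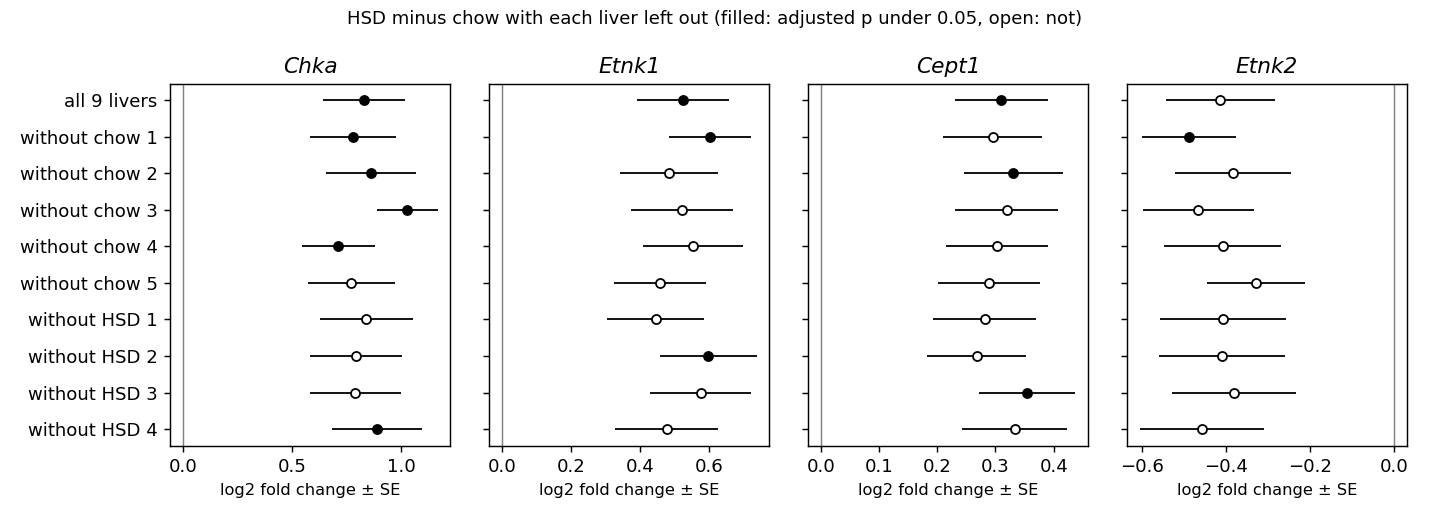
Log2 fold change, HSD minus chow, ± SE from edgeR for *Chka*, *Etnk1*, *Cept1* and *Etnk2*, with all 9 livers in the top row and 1 liver left out in each row below. Filled points passed at an adjusted p under 0.05, open points did not, and all points of a gene lie on the same side of 0.

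Within the first label series (4 chow and 2 HSD livers) the mean log2 CPM differences were 0.86 for *Chka*, 0.46 for *Etnk1*, 0.39 for *Cept1* and -0.33 for *Etnk2*. Within the second (1 chow and 2 HSD livers) they were 1.02, 0.79, 0.26 and -0.72, so each gene kept its direction in both. None of the members passed in edgeR on the first series alone, where the adjusted p was 0.225 for *Chka*, 0.278 for *Etnk1* and 0.169 for *Cept1*. With the label series as a covariate all 3 passed. With the log2 ratio of *Arntl* to *Dbp* as a clock covariate, *Chka* passed (log2 fold change 0.72, edgeR adjusted p = 0.0237), whereas *Etnk1* (0.45, adjusted p = 0.0642) and *Cept1* (0.30, adjusted p = 0.0602) did not. Chow 3 had both the highest *Arntl* and the highest *Chka* of the chow livers, and *Dbp*, a clock output gene, was at 43.3, 114, 27.4, 124 and 129 CPM in chow 1 to 5 and 35.1, 96.2, 49.4 and 69.5 CPM in HSD 1 to 4. Of the 10 clock genes listed, 0 passed in edgeR and 2 had an unadjusted p under 0.05, against 6.67% and 23.7% of all genes.

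Markers of other liver cells were read in the same livers. Over all genes, 3.44% rose, 3.23% fell and 23.7% had an unadjusted p under 0.05 in edgeR. Every HSD liver lay above every chow liver for 5.84%. Of 6 Kupffer cell and macrophage markers 0 passed in edgeR, 3 having an unadjusted p under 0.05, and their summed level was 145 to 328 CPM on chow and 93.3 to 189 CPM on HSD. For 5 stellate cell markers, 0 of which passed and 3 of which had an unadjusted p under 0.05, the sum was 144 to 190 CPM on chow and 182 to 229 CPM on HSD. Of 5 cholangiocyte markers 0 passed in edgeR, 2 had an unadjusted p under 0.05 and 1 had every HSD liver above every chow liver, with a median log2 fold change of 0.37 and a summed level of 29.9 to 73.5 CPM on chow and 44.1 to 68.1 CPM on HSD. Adipocyte markers summed to 2.70 to 5.93 CPM on chow and 4.78 to 7.17 CPM on HSD, with *Lep* at 0 in every liver. Red blood cell genes, 1 of 5 lower, summed to 182 to 459 CPM on chow and 115 to 157 CPM on HSD, without overlap. Of the zonal hepatocyte markers, 2 of 6 periportal and 1 of 6 pericentral genes fell, with sums of 5562 to 7296 and 7130 to 8638 CPM on chow and 4944 to 6202 and 6046 to 8513 CPM on HSD. The part of other cells and of the clock in the differences of the members was not tested beyond the covariate above.

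The genes around the pathway were read from 5 lists, of which 58 of 65 genes were tested. The counts were 2 rising, 5 falling and 51 not passing, with 21 at an unadjusted p under 0.05. For all 12091 genes the matching shares were 3.44% rising, 3.23% falling and 23.7% below that unadjusted threshold. Among 12 genes of other phospholipid synthesis, 1 rose, and the median log2 fold change was 0.19. This was *Selenoi*, the selenoprotein that transfers phosphoethanolamine to diacylglycerol and so makes the same product as *Cept1* in the ethanolamine branch. It measured 41.0, 36.0, 48.7, 45.3 and 35.4 CPM in chow 1 to 5 and 74.0, 65.4, 54.2 and 65.7 CPM in HSD 1 to 4. The diets did not overlap, and the log2 fold change was 0.65 (SE 0.12, edgeR adjusted p = 0.00818). It passed with each liver left out, but not in the limma fits on TPM (adjusted p 0.0512 to 0.0810) or in edgeR on the first label series alone (0.0844). DESeq2 gave 3 higher in this list, *Cds2*, *Pgs1* and *Selenoi*, and limma voom 2, *Pgs1* and *Selenoi*. Over all genes DESeq2 gave 632 higher, limma voom 438 and edgeR 416.

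Among 15 genes of methyl group supply and choline breakdown, 3 fell and 0 rose, and the median log2 fold change was -0.29. Of these genes, 8 had an unadjusted p under 0.05, against 23.7% of all genes, of which 3.23% fell and 3.44% rose. DESeq2 gave 6 lower and limma voom 5, and 0 higher by either. Over all genes DESeq2 also gave more lower calls, 663 against 391 by edgeR and 381 by limma voom. *Bhmt*, which returns a methyl group from betaine to homocysteine, measured 3643, 3374, 3719, 5172 and 4075 CPM in chow 1 to 5 and 770.2, 1893, 1386 and 1284 CPM in HSD 1 to 4. Every HSD liver was far below the lowest chow liver, and the log2 fold change was -1.58 (SE 0.23, edgeR adjusted p = 0.00284). Of its 31-base sequences, 27.1% also occur in Gm5096, whose own log2 fold change was -1.31 (edgeR adjusted p = 0.0315). The mitochondrial dehydrogenases that act on the products of betaine also fell. *Sardh*, sarcosine dehydrogenase, was at 1032 to 1205 CPM on chow and 591 to 622 CPM on HSD (log2 fold change -0.90, SE 0.09, edgeR adjusted p = 0.000417). *Dmgdh*, dimethylglycine dehydrogenase, was at 423 to 620 CPM on chow and 340 to 430 CPM on HSD (log2 fold change -0.50, SE 0.13, edgeR adjusted p = 0.0379), the diets overlapping only by chow 1 and HSD 2. *Bhmt* and *Sardh* passed with each liver left out, but not on the first label series alone (edgeR adjusted p 0.116 and 0.0705). *Dmgdh* passed only without chow 1 (adjusted p = 0.00541), and had an adjusted p of 0.0638, 0.0583, 0.0727 and 0.0767 without chow 2 to 5 in turn and 0.123, 0.0525, 0.0888 and 0.101 without HSD 1 to 4 in turn.

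In the list of choline transport and phospholipid turnover, 15 genes were tested, with a median log2 fold change of 0.06. Against the 3.44%, 3.23% and 23.7% of all genes given above, 1 rose, 2 fell and 7 had an unadjusted p under 0.05. Limma voom gave the same counts, whereas DESeq2, which gave more calls over all genes too, gave 3 higher and 3 lower. It added *Pctp* and *Slc44a1* to those that rose and *Stard10* to those that fell. *Gpcpd1*, which cleaves glycerophosphocholine, measured 101, 272, 121, 213 and 250 CPM in chow 1 to 5 and 45.5, 77.1, 99.0 and 58.0 CPM in HSD 1 to 4. Chow 1 and chow 3 lay close to the highest HSD liver, and the log2 fold change was -1.45 (SE 0.31, edgeR adjusted p = 0.0183), with an adjusted p of 0.0671 without HSD 1 and 0.0659 without HSD 4. *Lcat*, the plasma enzyme that uses phosphatidylcholine to esterify cholesterol, was at 321 to 463 CPM on chow and 228 to 311 CPM on HSD (log2 fold change -0.49, SE 0.13, edgeR adjusted p = 0.0479). *Slc44a3*, of the choline transporter-like family, was at 5.69 to 7.82 CPM on chow and 8.74 to 12.7 CPM on HSD (log2 fold change 0.59, SE 0.15, edgeR adjusted p = 0.0362). Neither overlapped between the diets, but the calls were near the threshold. For *Lcat* the adjusted p was 0.0710 without chow 2, 0.0865 without chow 3, 0.102 without HSD 1, 0.128 without HSD 3 and 0.148 without HSD 4. For *Slc44a3* it was 0.0523, 0.0729 and 0.0716 without chow 1, 3 and 5 and 0.0696, 0.0991 and 0.0860 without HSD 1, 2 and 4.

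Remodelling of acyl chains was read from 9 tested genes, of which 0 passed in edgeR, DESeq2 or limma voom and 0 had an unadjusted p under 0.05. The lowest p values belonged to *Mboat7*, which acylates lysophosphatidylinositol (27.7 to 32.0 CPM on chow, 33.1 to 35.8 CPM on HSD, log2 fold change 0.16, edgeR adjusted p = 0.220), and *Lpcat4* (0.58, edgeR adjusted p = 0.323), a low gene at 0.450 to 1.08 CPM. Among 7 liver X receptor genes, the receptors and targets of the pathway that controls *Lpcat3*, 0 passed in edgeR and limma voom and 1 in DESeq2. Of these genes, 3 had an unadjusted p under 0.05 in edgeR, against 23.7% of all genes. *Abcg5* and *Abcg8*, the partners of a canalicular sterol exporter, had log2 fold changes of 0.47 (SE 0.15, edgeR adjusted p = 0.0890) and 0.31 (SE 0.10, edgeR adjusted p = 0.0932). With the clock covariate both passed in edgeR, *Abcg5* at 0.67 (adjusted p = 0.00187) and *Abcg8* at 0.40 (adjusted p = 0.0224), and DESeq2 passed *Abcg5* alone (adjusted p = 0.0482).

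**Figure D4:**
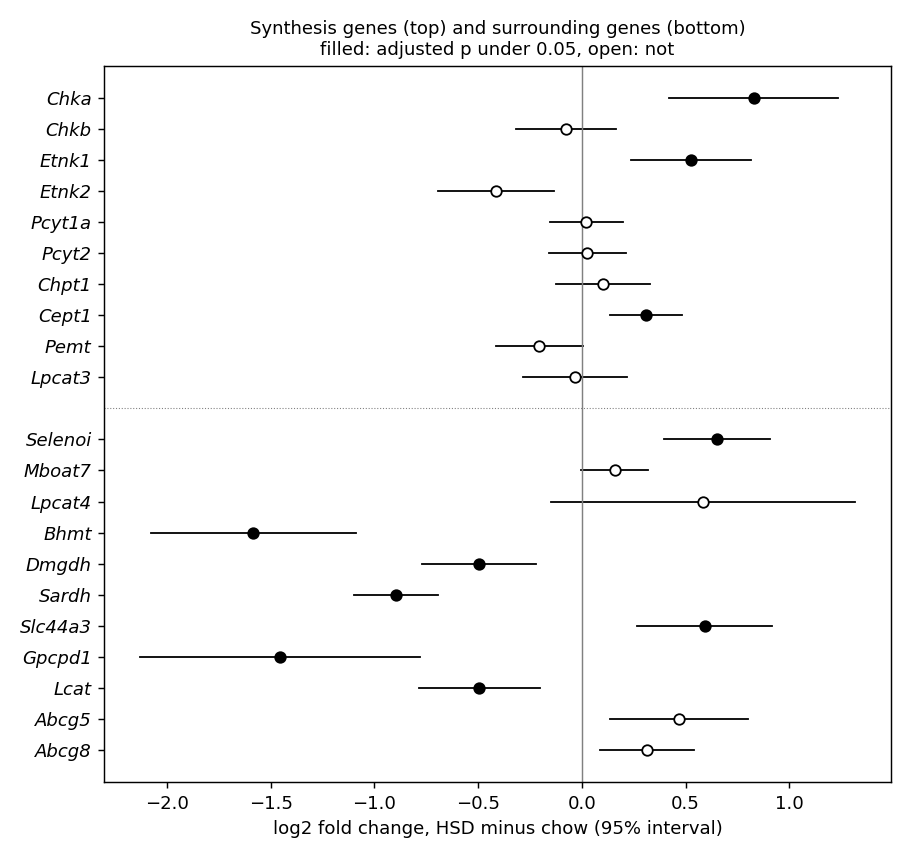
Log2 fold change, HSD minus chow, with 95% interval from edgeR for the 10 members (above the dotted line) and the named genes around the pathway (below it). Filled points passed at an adjusted p under 0.05, with *Chka*, *Etnk1*, *Cept1*, *Selenoi* and *Slc44a3* to the right of 0 and *Bhmt*, *Sardh*, *Dmgdh*, *Gpcpd1* and *Lcat* to the left.

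**Figure D5:**
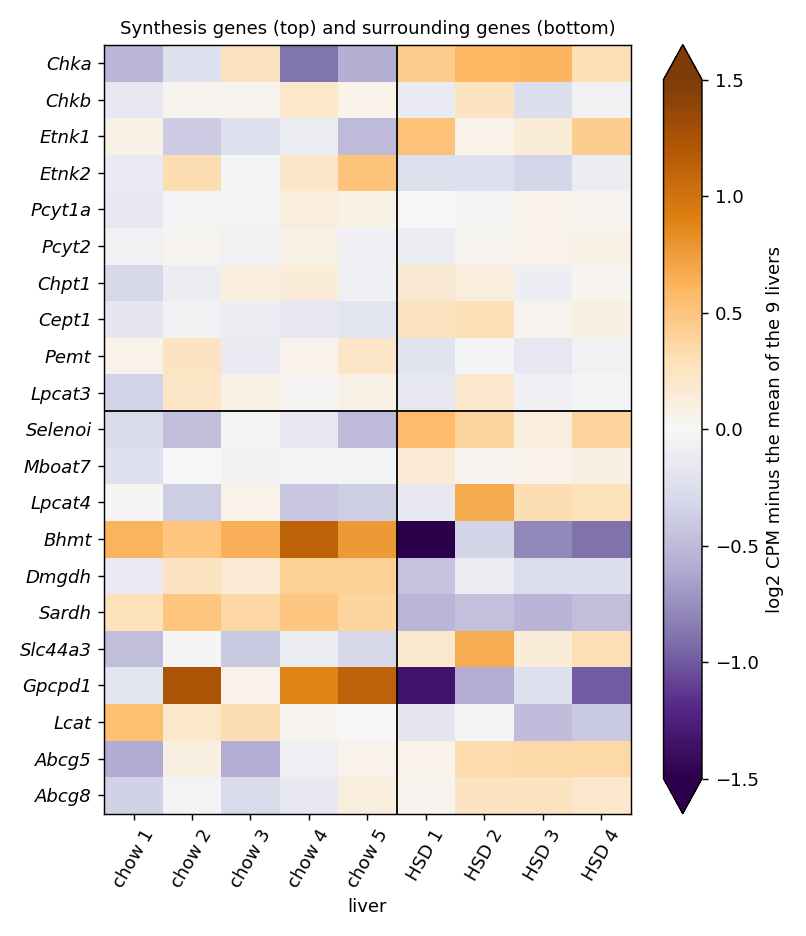
Log2 CPM of each gene in each liver minus that gene's mean over the 9 livers (orange higher, purple lower, colour scale cut at 1.5), with members above the horizontal line and chow left of the vertical line. *Chka* is orange in all 4 HSD livers and in chow 3, and *Bhmt* and *Sardh* change colour between the diets in every liver.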

How the data were processed

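Liver RNA from 5 chow and 4 HSD mice was analysed, grouped by the diet in the labels. The authors prepared poly-A libraries, ran kallisto on GRCm38 and deposited unscaled estimated counts by gene symbol, and TPM values scaled for length and library size. The sources used here give neither the kallisto version nor how transcripts were summed. A read that fits several transcripts is divided among them by kallisto, so overlapping genes can trade counts, and strand use is not stated. Of the values above 0, 34.1% were whole (tolerance 1e-06) and 99.1% of these were even, so a fit with halved counts was also run.

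In R 4.3.3, edgeR 4.0.16 was run on the rounded counts with TMM factors after filterByExpr (at least 10 counts, total at least 15), using its quasi-likelihood test (7 residual degrees of freedom, Benjamini-Hochberg over 12091 genes, threshold 0.05). The biological coefficient of variation was 0.187. The log2 CPM used a prior count of 2. Scripts were tested on simulated data. No 2 livers of a diet were repeats of each other, with chi-square per degree of freedom of 15.2 to 264 over 16 pairs. Alternatives used DESeq2 1.42.0 and limma 3.58.1 (voom, or log2 of TPM + 1 or + 0.1, with or without a minimum mean TPM of 1), other scalings, no filter, covariates for the replicate number, label series or clock, an adjusted p under 0.01 and each liver left out. The tables held 0 columns of other samples. Gene overlap was read from GENCODE for GRCm38 as shared 31-base sequences. Named were all members, every surrounding gene that passed, the 2 lowest p values of a list with none, and Arntl, Dbp, Saa2 and Hp. Gm44502, Dennd2d and Gm5096 were named for shared sequence. Cds2, Pgs1, Pctp, Slc44a1 and Stard10, which passed only in alternative fits, were named after their values were seen. The members, lists and tests were chosen with earlier results of these data known.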

Additional observations from a re-analysis of the deposited data

Results flagged for a closer look

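In 4 of 52 groups of livers looked at (7.69%, where chance flags about 1 in 20 groups), a single liver lay far from the others of its diet. *Abcg5* in HSD 1 was lower than in the other HSD livers, by -0.29 on the log2 CPM scale. *Mboat7* in chow 1 differed from the other chow livers by -0.18 on the same scale. The log2 TPM ratio of *Chpt1* to *Cept1* in chow 4 was 0.50 above the other chow livers, and the log2 TPM ratio of *Pcyt1a* to *Pcyt2* in chow 5 was 0.26 above them. The causes were not tested.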

How the results depend on the processing

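Over the alternative settings, 480 values were read for 21 genes. Those for an adjusted p under 0.01 came from the reported fit at that stricter threshold, so their direction could not change. Of the 480 values, 374 kept direction and side of the threshold, 86 no longer passed, 5 newly passed and 15 changed sign. Among the members, 3 rose and 0 fell in the reported fit. The count that rose was 1 with limma on log2(TPM + 1) over all genes, 1 with the clock covariate, 0 on the first label series alone and 0 at an adjusted p under 0.01, and 0 to 2 with a liver left out. The count that fell was 1 by DESeq2 (*Etnk2*) and 0 to 1 with a liver left out. *Cept1* also lost its call without the filter (adjusted p = 0.0634) and with limma on TPM (0.0946 to 0.108). Over all genes, 416 rose and 391 fell, with 632 and 663 by DESeq2, 569 and 254 by library totals, 412 and 82 by limma on log2(TPM + 1), 324 and 64 on log2(TPM + 0.1), 433 and 72 on log2(TPM + 1) over all genes, 15 and 19 on the first series, 97 and 112 under 0.01, and 153 to 475 and 149 to 493 with a liver left out. The share of calls that rose was 51.5% in the reported fit, 69.1% by library totals and 83.4%, 83.5% and 85.7% on TPM, where the median of all genes shifted by 0.14, 0.16 and 0.06 (log2). In the surrounding lists, 2 rose and 5 fell, with 7 and 9 by DESeq2 and 4 and 3 by library totals. Limma on TPM over genes with a mean of at least 1 (both offsets) gave 1 (*Pgs1*, not *Selenoi* or *Slc44a3*) and 2 (*Bhmt* and *Sardh*). On log2(TPM + 1) over all genes it gave 3 rising, again without *Selenoi* or *Slc44a3*, and the same 2 falling. With the label series as a covariate 3 fell, and the first series gave 0 and 0. With the clock covariate 5 rose (*Abcg5*, *Abcg8* and *Pctp* added). The counts were 1 and 2 under 0.01, and 1 to 3 and 2 to 8 with a liver left out. These causes were not tested.

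The replicate number was used as a block although the numbers do not pair the mice. The deviations of same-numbered livers correlated across genes at 0.05, 0.07, -0.06 and 0.04. Of chow 1 to 4, only chow 2 and chow 4 correlated best with the HSD liver of their own number. With the replicate block, 220 genes rose and 205 fell, 1 surrounding gene rose and 3 fell, and among the members *Chka* (edgeR adjusted p = 0.0199) and *Etnk1* (0.0399) passed and *Cept1* (0.132) did not.

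Members near 0 changed sign. *Lpcat3* was 0.033 by library totals, 0.13 in each limma fit on TPM, 0.019 on the first series, 0.023 with the clock covariate, 0.022 without chow 2 and 0.015 without HSD 1, within -0.11 to 0.022 over the fits with a liver left out. *Chkb* was 0.015 (log2(TPM + 1), both gene sets) and 0.016 (log2(TPM + 0.1)) with limma and 0.029 on the first series. *Pcyt1a* was -0.0046 with the label series as a covariate and -0.020 without chow 1, within -0.020 to 0.054 with a liver left out, and *Pcyt2* was -0.034 on the first series. The log2 TPM ratios moved by less than the larger SD of the diets, with 1.09 to 1.41 for *Chka* to *Chkb*, -1.08 to -0.78 for *Etnk2* to *Etnk1*, -0.13 to 0.01 for *Chpt1* to *Cept1*, 0.00 to 0.09 for *Pcyt1a* to *Pcyt2* and -0.29 to -0.19 for *Pemt* to *Pcyt1a* with a liver left out. For *Chpt1* to *Cept1* that SD (0.23 on chow, 0.021 on HSD) includes chow 4, without which the difference went from -0.09 to 0.0053.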
